A study of Mus musculus with 15 samples.

Results

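Coverage of 5-hydroxymethylcytosine (5hmC) and of unmodified cytosine was examined at 10 mouse genes of fibroblast growth factor (FGF) and ERK signaling and of the primed pluripotent state: Fgf4, Fgf5, Fgfr1, Fgfr2, Otx2, Dusp6, Spry2, Spry4, Etv4 and Etv5. The genes were taken by name, by a rule that uses no coverage value. For each gene, all CG sites of the annotated gene span plus 2 kb upstream were used, on genome build mm10 with the annotation of GENCODE M21. They are 10 of 20722 autosomal protein-coding genes, all of which were measured in the same way.

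The maps came from genomic DNA of E14TG2a cells, a line of mouse embryonic stem cells (mESCs), grown on gelatin with LIF and fetal bovine serum. No cell was treated or genetically altered for the comparison, and the groups differ in the assay and in the amount of input DNA. In hmTOP-seq, the glucosyltransferase BGT places an azide-bearing glucose on 5hmC, an oligonucleotide is clicked to the azide, and a polymerase primes from it, so that a read starts at or beside the labeled CG. Inputs of 500, 50 and 5 ng of DNA were labeled in 2 technical replicates. For each of these inputs, 2 further libraries were made without BGT as controls. In uTOP-seq, the same principle maps unmodified CGs, and it was carried out with 300 ng of DNA in 3 replicates. Replicates were not stated to come from separate cultures, and the paper calls those of hmTOP-seq technical. The p-values therefore measure the spread between libraries, which is technical in hmTOP-seq and may be so in uTOP-seq.

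The libraries held 31918445 to 32502791 reads from 500 ng of DNA, 22052535 to 23027170 from 50 ng, 14884939 to 15277636 from 5 ng and 20120568 to 28412885 in uTOP-seq, against 3409 to 10072 in the controls. Averaged over the 20383623 autosomal CGs, this was 1.58 and 1.55 reads per CG from 500 ng, 1.12 and 1.07 from 50 ng, 0.722 and 0.741 from 5 ng, and 1.37, 1.11 and 0.972 in uTOP-seq. A single CG was therefore covered thinly, and sums over a gene or a part of it were used. Where groups of unequal depth are compared, reads per CG are given relative to the autosomal mean of the library, so that 1 is the average CG.

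FGF4 is the ligand that mESCs secrete, and it acts through FGF receptors, RAS and the kinases MEK and ERK to let cells leave the naive state. ERK activity switches on genes for ETS transcription factors (Etv4, Etv5) and for inhibitors of its own pathway, the phosphatase DUSP6 and the Sprouty proteins. In the primed state that follows, the ligand gene Fgf5 and the homeobox gene Otx2 are induced, and both serve as markers of that state. In DNA, TET enzymes oxidize 5-methylcytosine to 5hmC, whereas CG-rich gene starts usually stay unmodified.

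The annotated span started upstream of the principal transcript at 4 loci. It is the extent of the whole gene in the annotation, with all its transcripts, protein-coding or not. Exons were those of protein-coding transcripts, and the rest of the span was counted as introns. In Fgf4 the span and the principal transcript both held 106 exon CGs, against 188 and 37 intron CGs. In Fgfr1, Fgfr2 and Otx2 the span held more exon CGs than the principal transcript. The counts were 237 against 219, 199 against 128 and 102 against 64. The Fgfr2 span of 2960.9 kb at chr7:130162451-133123350 holds 31921 CGs and overlaps 30 other protein-coding genes, whereas its principal transcript covers 102.483 kb and holds 1453 CGs with the 2 kb upstream. The span of Fgf4 begins 14.02 kb, that of Otx2 6.30 kb and that of Fgfr1 5.11 kb upstream of the start of the principal transcript. The other 6 spans start within 0.061 kb of the principal transcript. The principal transcript was brought in after the values of the spans were seen. None of the 10 principal transcripts overlaps another protein-coding gene.

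At 500 ng, the mean coverage over the gene span was highest in Fgfr1, with 4.91 ± 0.029 reads per CG (SD, n = 2), followed by Etv5 with 3.35 ± 0.043, Spry4 with 3.18 ± 0.086 and Etv4 with 2.92 ± 0.061. Lower values were seen in Fgfr2 with 2.04 ± 0.019, Fgf4 with 1.93 ± 0.032, Otx2 with 1.92 ± 0.076 and Fgf5 with 1.56 ± 0.12 reads per CG. Far below these stood Dusp6 with 0.374 ± 0.079 and Spry2 with 0.127 ± 0.040 reads per CG. In this order, the replicates of neighbors did not overlap, relative to the library mean, apart from Fgf4 and Otx2. Over all genes the median was 1.52 reads per CG, and 8 of the 10 genes lay above it. These means weight the parts of a gene by their CGs. The 2 kb upstream held 134 of 270 CGs in Dusp6 and 144 of 315 in Spry2, against 23 of 1189 in Fgfr1. The exons of Dusp6 and Spry2 had 0.757 and 0.609 reads per CG, against a median of 1.70 over all genes.

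The order in uTOP-seq was another one. Relative to the library mean, Spry4 stood highest at 3.802 ± 0.10 (SD, n = 3), followed by Dusp6 at 3.34 ± 0.13, Fgf4 at 3.16 ± 0.14, Etv4 at 2.87 ± 0.084, Etv5 at 2.69 ± 0.089, Spry2 at 2.39 ± 0.11 and Fgfr1 at 2.23 ± 0.043. Otx2 at 1.45 ± 0.084, Fgf5 at 1.43 ± 0.032 and Fgfr2 at 1.28 ± 0.0085 were lowest. The replicates of Dusp6 and Fgf4 and those of Otx2 and Fgf5 overlapped, and those of the other neighbors did not. The median percentile of the 10 genes among all genes was 90.7 in uTOP-seq and 61.5 in hmTOP-seq at 500 ng, and 9 of 10 lay above the median of all genes in uTOP-seq.

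**Figure D1:**
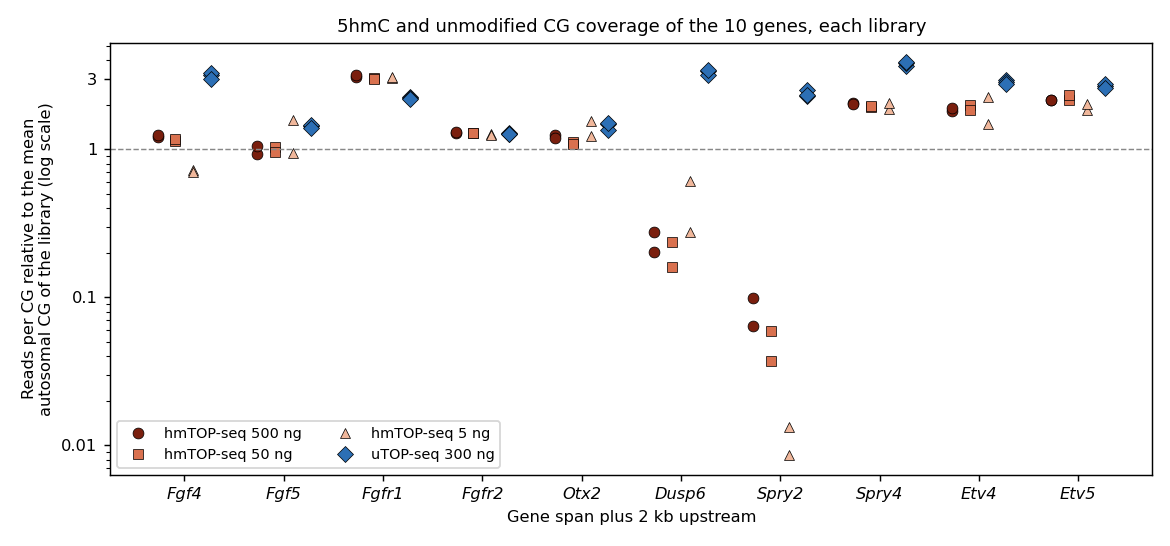
Reads per CG over the gene span plus 2 kb upstream, relative to the mean autosomal CG of the library (log scale), for each hmTOP-seq library at 500, 50 and 5 ng (circles, squares, triangles) and each uTOP-seq library (diamonds). The dashed line marks the average CG. Dusp6 and Spry2 lie below it in all 6 hmTOP-seq libraries and above it in all 3 uTOP-seq libraries.

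**Figure D2:**
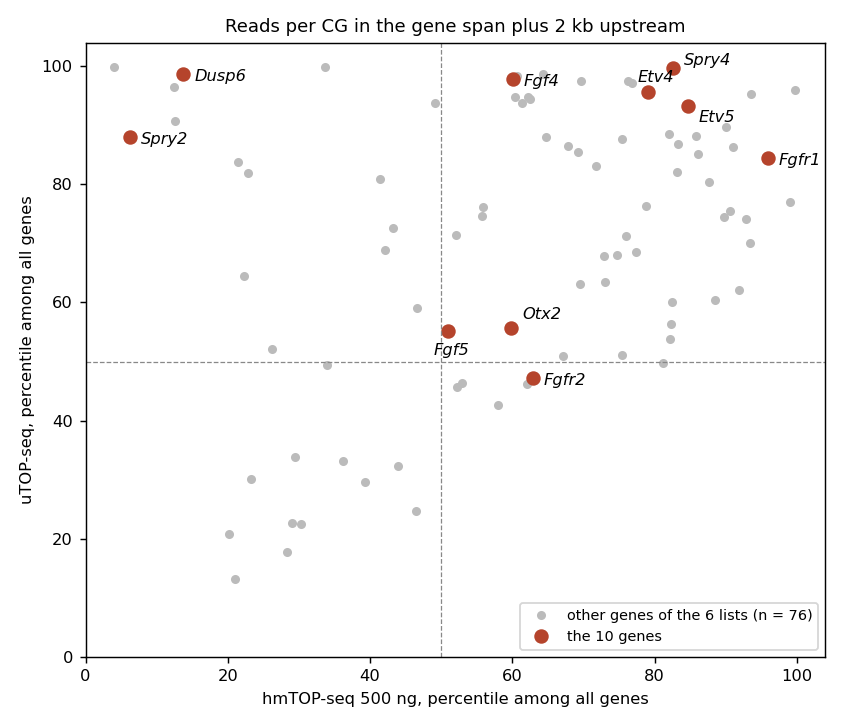
Percentile of each gene among all autosomal protein-coding genes in hmTOP-seq at 500 ng (x axis) and uTOP-seq (y axis), from reads per CG over the gene span plus 2 kb upstream. Red points are the 10 genes, gray points 76 other genes of the FGF-ERK, primed-state and naive-state lists, and dashed lines mark the 50th percentiles. Spry2 and Dusp6 combine a percentile of 6.27 and 13.8 on the x axis with 88.0 and 98.7 on the y axis.

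The CG with the most hmTOP-seq reads at 500 ng is a single site, chosen by that count. It need not stand for the 5hmC of the whole gene. Its high 500-ng count and any excess over uTOP-seq follow in part from the choice. This CG is printed below for 8 genes on the plus strand of mm10, with 14 bases on each side and the CG in capitals. Its distance is counted from the start of the principal transcript in the direction of the gene.
Fgf4 (chr7:144849710-144849739, at -11.7 kb): ccttctggctgcccCGgtgatttcccaagg
Fgf5 (chr5:98275350-98275379, coding exon, at 21.2 kb): gaggctgcagcccaCGggtcaaaccccaac
Fgfr1 (chr8:25564290-25564319, intron, at 45.5 kb): gaggtctcatgtccCGggcttgtccatttt
Fgfr2 principal transcript (chr7:130206522-130206551, intron, at 59.7 kb): ccttgcactgtagcCGggagccaagaccca
Otx2 (chr14:48675402-48675431, at -7.90 kb): aaagtcctctttcaCGtggctcaagttaaa
Spry2 (chr14:105893193-105893222, coding exon, at 3.61 kb): acacttgcacttgcCGcagtcctcacacct
Etv4 (chr11:101774042-101774071, intron, at 11.3 kb): aggcccgggtccccCGgtgcttcagatctg
Etv5 (chr16:22421814-22421843, intron, at 17.9 kb): cgcacctgcagtccCGgctctagccaaccg
In Dusp6 this CG lay in the 3′ UTR and in Spry4 in a coding exon. None of the printed CGs lay within 3 kb of the start of the principal transcript, but this depends on the region used. Those of Fgf4 and Otx2 came from the annotated span, and that of Fgfr2 from the principal transcript. Over the principal transcript and the 2 kb before it, the strongest CG of Fgf4 lay at -1.69 kb, with 28 and 26 reads at 500 ng. That of Otx2 lay at 6.07 kb, with 18 and 18 reads.

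The CG with the most uTOP-seq reads over the span lay near the start in Spry2, Fgf5, Etv5 and Etv4, in Etv4 at 0.042 kb. In the other genes it lay farther off, with mean 500-ng reads of 14.5 in Fgfr1, 12 in Fgf4, 11.5 in Fgfr2, 11.5 in Spry4, 7 in Otx2 and 2 in Dusp6. The sites of 3 genes are shown in the same way. They were picked because hardly any 5hmC was read at them, so that their low hmTOP-seq counts follow from the choice. CGs other than the one with the most hmTOP-seq reads were chosen after their values were seen.
Spry2 (chr14:105896976-105897005, at -0.171 kb): aagacccgggggccCGgggctgctcccaag
Etv5 (chr16:22439713-22439742, at -0.008 kb): tcggcggccatcccCGcggctgcccatcac
Fgf5 (chr5:98254152-98254181, at -0.018 kb): agtacacaaagcggCGggtgaggggaagct
The site of Spry2 held 29, 10 and 12 uTOP-seq reads and that of Etv5 23, 14 and 17, and neither held a read in any of the 6 hmTOP-seq libraries. The site of Fgf5 held 27, 14 and 9 uTOP-seq reads and, of the hmTOP-seq libraries, 2 reads in 1 of the 500-ng replicates.

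Of the ligand genes, Fgf4 had little 5hmC in the gene itself and more around it. Fgf4, at chr7:144847367-144865243 on the plus strand, had 592 and 606 reads at 500 ng, 396 and 390 from 50 ng, 164 and 161 from 5 ng of DNA, and 1355, 1141 and 909 in uTOP-seq over 311 CGs. Over the principal transcript and the 2 kb before it, which start 14.02 kb later, only 142 and 131 of these reads remained at 500 ng, or 0.704 ± 0.040 reads per CG, at the 24.2 percentile of all genes instead of the 60.1 percentile. The strongest CG printed above, with 32 and 29 reads at 500 ng against 1, 0 and 0 in uTOP-seq, lies in the stretch that the principal transcript leaves out. That CG had 0 and 22 reads from 50 ng and 0 and 0 from 5 ng of DNA.

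Within the principal transcript of Fgf4, coverage at 500 ng fell from 2.02 ± 0.25 reads per CG in the 2 kb upstream to 0 reads in the 5′ UTR (16 CGs) and 0.055 ± 0.026 reads per CG in the coding exons (55 CGs). The introns had 0.12 ± 0.019 and the 3′ UTR 0.74 ± 0.20 reads per CG. In the 2 kb downstream it was 8.42 ± 1.06 reads per CG, although only 6 CGs lie there. In uTOP-seq every part of the Fgf4 transcript was covered, from 2.54 ± 0.52 reads per CG in the 5′ UTR to 4.43 ± 1.24 in the introns. The body of Fgf4 was thus poor in 5hmC and well covered in uTOP-seq, with 5hmC reads on either side.

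Fgf5, the ligand gene that marks primed cells, lay near the average in both assays. At chr5:98254184-98277030 on the plus strand it had 553 and 615 reads at 500 ng, 434 and 386 from 50 ng, 257 and 439 from 5 ng of DNA, and 743, 609 and 509 in uTOP-seq over 375 CGs. Its 2 kb upstream had 2.47 reads per CG in both 500-ng replicates, and its coding exons had 2.98 ± 0.38, against 0.19 ± 0.067 in the 5′ UTR and 1.26 ± 0.094 in the introns. The upstream region of Fgf5 stood at the 79.2 percentile in hmTOP-seq and at the 72.3 percentile in uTOP-seq, so that both marks were read there. Its strongest CG, in the last part of the coding sequence, had 17 and 29 reads at 500 ng and 0, 0 and 2 in uTOP-seq.

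The receptor gene Fgfr1 had the most 5hmC of the 10 genes. Fgfr1, at chr8:25513654-25575718 on the plus strand, encodes the main FGF receptor of mESCs, and it had 5816 and 5865 reads at 500 ng, 4036 and 3828 from 50 ng, 2609 and 2712 from 5 ng of DNA, and 3714, 2935 and 2533 in uTOP-seq over 1189 CGs. Its percentile among all genes was 95.9 with 500 ng, 96.3 with 50 ng and 96.6 with 5 ng, and in uTOP-seq it was 84.5. A read in both 500-ng replicates was found at 656 of its CGs, or 55.2%, the highest share of the 10 genes.

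The 5hmC of Fgfr1 lay in its body rather than at its start. At 500 ng, the 2 kb upstream of the principal transcript had 0.98 ± 0.33 reads per CG, the 5′ UTR 0.68 ± 0.069, the introns 5.04 ± 0.15, the coding exons 8.46 ± 0.67 and the 3′ UTR 12.2 ± 0.37. In uTOP-seq, the same parts held between 2.03 ± 0.23 and 3.0 ± 0.80 reads per CG. The strongest CG of Fgfr1, in an intron, had 62 and 79 reads at 500 ng and 2, 9 and 3 in uTOP-seq.

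Fgfr2 encodes the second receptor of this group, and most of its annotated span lies outside the principal transcript, among the 30 other genes. Over the span, 65533 and 64673 reads were counted at 500 ng, 46120 and 44181 from 50 ng, 29371 and 29702 from 5 ng of DNA, and 56248, 45052 and 39570 in uTOP-seq. Over the principal transcript and the 2 kb before it, at chr7:130163709-130266191 on the minus strand with the upstream region beyond its end, these were 4197 and 4189 reads at 500 ng and 2331, 1871 and 1678 in uTOP-seq. Coverage at 500 ng was then 2.89 ± 0.0039 reads per CG at the 78.3 percentile, against the 41.7 percentile in uTOP-seq. Of its parts, the coding exons had the most reads per CG, with 7.27 ± 0.017 reads per CG, against 2.80 ± 0.0023 in introns, 0.76 ± 0.16 in the 5′ UTR and 0.38 ± 0.010 in the 2 kb upstream.

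Otx2 encodes a homeobox transcription factor of the primed state. At chr14:48657677-48673819 on the minus strand, it had 933 and 882 reads at 500 ng, 590 and 552 from 50 ng, 535 and 432 from 5 ng of DNA, and 962, 713 and 695 in uTOP-seq over 473 CGs. Over the principal transcript the percentile at 500 ng was 49.3 and that in uTOP-seq 56.6, so that neither mark stood out. Coverage at 500 ng was highest in its coding exons, with 4.38 ± 0.27 reads per CG over 16 CGs, and was 2.11 ± 0.066 in the 2 kb upstream, 1.14 ± 0.15 in the introns and 0.77 ± 0.32 in the 5′ UTR. Its strongest CG, upstream of the principal transcript, had 41 and 40 reads at 500 ng and 5, 1 and 1 in uTOP-seq.

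The feedback genes Dusp6 and Spry2 had few hmTOP-seq reads per CG, at the 13.8 and 6.27 percentiles of all genes at 500 ng. Dusp6, at chr10:99263231-99267489 on the plus strand, had 86 and 116 reads at 500 ng, 71 and 46 from 50 ng, 54 and 122 from 5 ng of DNA, and 1259, 959 and 900 in uTOP-seq over 270 CGs. Only 13 of its 270 CGs, or 4.81%, had a read in both 500-ng replicates, and the 10 strongest CGs held 70.3% of the reads. These reads lay toward the end of the gene, with 0.037 ± 0.021 reads per CG in the 2 kb upstream, 0.036 ± 0.051 in the 5′ UTR, 0.80 ± 0.19 in the coding exons, 2.17 ± 0.12 in the 3′ UTR and 4.84 ± 0.38 in the 2 kb downstream. In uTOP-seq the same parts held 2.92 ± 0.25 to 4.83 ± 1.15 reads per CG.

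The strongest CG of Dusp6, in the 3′ UTR, had 13 and 23 reads at 500 ng, 12 and 2 from 50 ng, 7 and 57 from 5 ng of DNA, and 14, 23 and 6 in uTOP-seq. The 5-ng replicates of this gene thus differed widely, and 57 of the 122 reads of the second one were on that CG.

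Spry2 encodes a Sprouty protein, an inhibitor of signaling downstream of FGF receptors. At chr14:105891947-105896819 on the minus strand, it had 49 and 31 reads at 500 ng, 13 and 20 from 50 ng, 3 and 2 from 5 ng of DNA, and 1001, 882 and 718 in uTOP-seq over 315 CGs. Only 6 of its CGs, or 1.90%, had a read in both 500-ng replicates, against 127 CGs, or 40.3%, with a read in all 3 uTOP-seq replicates. Of the 80 reads of both 500-ng libraries, 65 lay on the 34 CGs of the coding exon, 9 in the intron, 4 in the 2 kb upstream and 2 in the 3′ UTR. The 5′ UTR held none. The strongest CG of Spry2, printed above, had only 11 and 2 reads at 500 ng, 0 and 6 from 50 ng and 0 and 0 from 5 ng of DNA. The 25 CGs of the 2 kb downstream had 2.30 ± 0.76 reads per CG at 500 ng, more than any part of the gene itself.

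Spry4, the other Sprouty gene, had many reads in both assays, with most reads per CG in its coding exons in each. At chr18:38586247-38601415 on the minus strand, it had 1126 and 1084 reads at 500 ng, 751 and 727 from 50 ng, 472 and 528 from 5 ng of DNA, and 1757, 1484 and 1309 in uTOP-seq over 347 CGs. Coverage at 500 ng was 0.52 ± 0.15 reads per CG in the 2 kb upstream, 0 in the 5′ UTR, 1.80 ± 0.033 in the introns, 10.4 ± 0.92 in the coding exons and 6.62 ± 0.21 in the 3′ UTR. In uTOP-seq, the coding exons had 5.58 ± 0.89 reads per CG, and Spry4 stood at the 99.6 percentile of all genes. Its strongest CG, in the coding exon at 11.5 kb from the start, had 69 and 64 reads at 500 ng, 30 and 42 from 50 ng, 48 and 6 from 5 ng of DNA, and 10, 13 and 19 in uTOP-seq.

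In the ETS factor genes Etv4 and Etv5, 5hmC was hardly read at the 5′ UTR and was read in the body. Etv4, at chr11:101769742-101785371 on the minus strand, had 930 and 958 reads at 500 ng, 718 and 634 from 50 ng, 345 and 544 from 5 ng of DNA, and 1309, 1033 and 874 in uTOP-seq over 323 CGs. Coverage at 500 ng was 1.70 ± 0.15 reads per CG in the 2 kb upstream, 0 in the 5′ UTR, 5.95 ± 0.33 in the coding exons, 2.70 ± 0.22 in the introns and 6.403 ± 0.75 in the 2 kb downstream. Its upstream region held 5.29 ± 1.23 uTOP-seq reads per CG, the most of its parts. The strongest uTOP-seq site, in the 5′ UTR, had 31, 10 and 7 reads and no hmTOP-seq read at any input.

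Etv5, at chr16:22381309-22439719 on the minus strand, had 3470 and 3408 reads at 500 ng, 2463 and 2554 from 50 ng, 1370 and 1549 from 5 ng of DNA, and 3794, 3176 and 2594 in uTOP-seq over 1026 CGs. Its 2 kb upstream had 1.53 ± 0.11 reads per CG at 500 ng and 5.32 ± 1.49 in uTOP-seq, at the 65.0 and 99.6 percentiles of all genes. The coding exons went the other way, with 4.99 ± 0.49 reads per CG at 500 ng and 2.34 ± 0.22 in uTOP-seq, and the 3′ UTR more so, with 3.12 ± 0.28 against 0.63 ± 0.10. Of the 31 CGs of the 5′ UTR, a single read was found in the 500-ng libraries together. The strongest 5hmCG of Etv5, in an intron, had 38 and 54 reads at 500 ng and 2, 6 and 8 in uTOP-seq, and that of Etv4 had 30 and 43 against 10, 11 and 9.

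**Figure D3:**
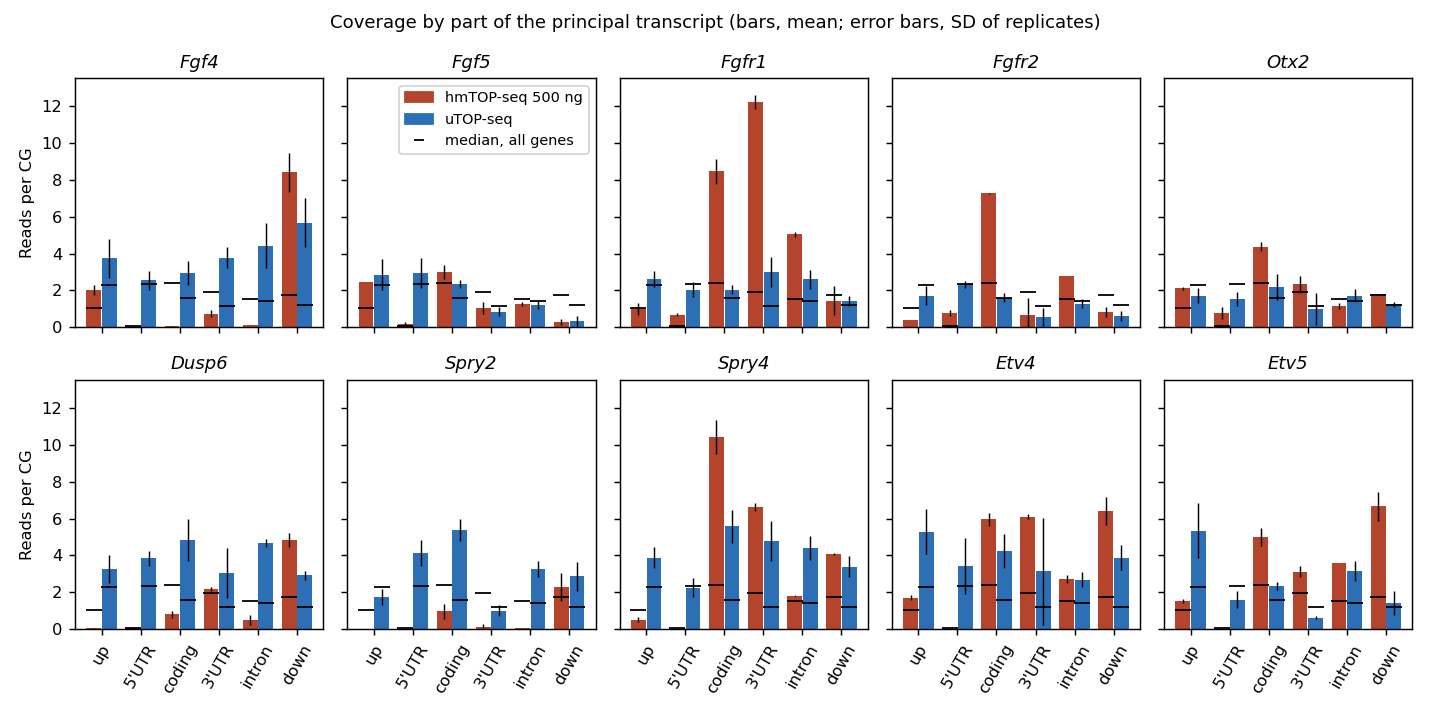
Reads per CG in the 2 kb upstream (up), the 5′ UTR, coding exons, 3′ UTR and introns of the principal transcript and the 2 kb downstream (down), for hmTOP-seq at 500 ng (red, n = 2) and uTOP-seq (blue, n = 3). Bars are means and error bars the SD of replicates, and black ticks mark the median of all genes. The red bars of coding exons stand above those of the 5′ UTR in all 10 genes, at 0.055 reads per CG in Fgf4 and up to 10.4 in Spry4.

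Set side by side, each of the 10 genes had fewer 500-ng reads per CG in the 5′ UTR than in its coding exons. Against medians of 0.047 and 2.40 reads per CG over all genes, the 5′ UTR was above the median in Fgf5, Fgfr1, Fgfr2 and Otx2, and the coding exons were below it in Fgf4, Dusp6 and Spry2. In both 500-ng replicates, coding exons had more reads per CG than the 5′ UTR in 10 of 10 genes, which held for 89.9% of all genes with at least 10 CGs in both parts. Coding exons exceeded the 2 kb upstream in 9 of 10 genes (68.5% of all genes) and the introns in 9 of 10 (65.3%), and Fgf4 was the exception in both. The 2 kb downstream exceeded the 2 kb upstream in 6 of 9 genes with enough CGs (57.1%), namely Fgfr2, Dusp6, Spry2, Spry4, Etv4 and Etv5. Introns exceeded the 2 kb upstream in 7 of 10 genes (59.2%), namely those genes other than Fgf4, Fgf5 and Otx2. These shares of all genes are near or somewhat below those of the 10 genes, and no test was made of the difference.

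Over the spans of the annotation, exons had more reads per CG than the promoter, here the 2 kb upstream, in both 500-ng replicates in 7 of 10 genes, against 57.7% of all genes. Fgf4, Fgf5 and Otx2 did not show this. In Fgf4 the promoter at the annotated start, 14.02 kb before the principal one, had 4.65 ± 0.083 reads per CG and the exons 0.27 ± 0.053.

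In uTOP-seq the order of parts differed between the genes. Coding exons had more reads per CG than the 5′ UTR in all 3 replicates in 5 of 10 genes, namely Otx2, Spry2, Spry4, Etv4 and Etv5, against 27.7% of all genes. They exceeded the 2 kb upstream in Dusp6, Spry2 and Spry4 (20.7% of all genes) and the introns in Fgf5, Fgfr2, Otx2, Spry2, Spry4 and Etv4 (38.7%). Introns exceeded the 2 kb upstream in Fgf4, Dusp6, Spry2 and Spry4 (16.0%), and the 2 kb downstream exceeded it in Spry2 alone of 9 genes (14.5%). Over the annotated spans, the promoter had more reads per CG than introns in 5 of 10 genes, against 54.0% of all genes.

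The 5′ UTRs of the 10 genes together held 254 reads of both 500-ng libraries and 2316 reads of the 3 uTOP-seq libraries over 321 CGs. Of these 254 reads, 125 were in Fgfr1, 61 in Fgfr2 and 57 in Otx2. At 500 ng, the first 500 bp after the start had 0.056 reads per CG in Fgfr1 and 0.098 in Fgfr2, against 0.68 and 0.76 in their 5′ UTRs. In these 2 genes the 5′ UTR therefore does not stand for the start alone. In Otx2 the values were 0.74 and 0.77. The 5′ UTR of 4 of 10 genes had no read at 500 ng, which was so in 35.2% of all genes with enough CGs. For these, 3 reads over both libraries give an upper limit of 0.0938 reads per CG in Fgf4, 0.125 in Spry2, 0.0714 in Spry4 and 0.0652 in Etv4, against 2.54, 4.14, 2.25 and 3.42 reads per CG in uTOP-seq. Such limits cover counting error only, because duplicates were removed without molecular identifiers.

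Around the start of the principal transcript, the median 5hmC coverage of the 10 genes dipped for longer than that of all genes. From 0 to 500 bp after the start, the median of the 10 genes at 500 ng was 0.046 reads per CG, against 0.125 over all genes, and from 500 to 1000 bp it was 0.038 against 0.50. From 1000 to 1500 bp it was 0.28 against 0.90, and from 1500 to 2000 bp 0.63 against 1.0. In these bins the median of the 10 genes lay within the quartiles of all genes, apart from 500 to 1000 bp, where the lower quartile was 0.050. Fgf5 did not follow, with 2.47 reads per CG from 500 to 1000 bp. All genes were taken without matching for CGs at the start. In each bin from 3500 bp on, the median of the 10 genes was above that of all genes, as at 7000 to 7500 bp with 5.20 against 0.92 reads per CG. The same held upstream, in each bin from -5000 to -1500 bp, as at -3000 to -2500 bp with 3.01 against 0.75 reads per CG. In uTOP-seq the median of the 10 genes was 2.66 reads per CG from 0 to 500 bp, against 2.20 over all genes, and 3.66 against 1.28 from 1500 to 2000 bp. These are medians over 10 genes without a test, and bins beyond the end of the short genes Fgf4, Dusp6 and Spry2 lie downstream of them.

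**Figure D4:**
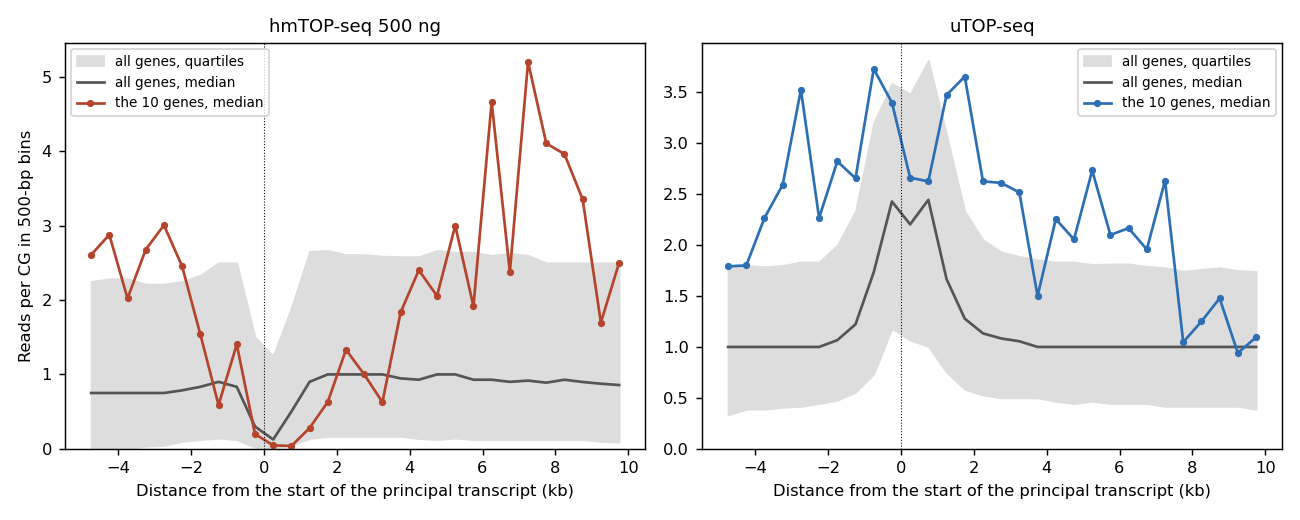
Reads per CG in 500-bp bins from 5 kb before to 10 kb after the start of the principal transcript, for hmTOP-seq at 500 ng (left) and uTOP-seq (right). Colored lines are the median of the 10 genes, the dark line and gray band the median and quartiles of all genes. In the bin from 500 to 1000 bp the hmTOP-seq median of the 10 genes is 0.038 and that of all genes 0.50.

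The longest stretch of CGs without a 500-ng read makes the same dip visible in single genes. In Spry2 it ran over 117 of 315 CGs and 1302 bp, from -876 to 424 bp of the start, and no read of the 50-ng and 5-ng libraries fell into it either, while uTOP-seq had 1.99 ± 0.27 reads per CG there. In Etv5 it held 97 CGs from -343 to 713 bp, in Fgf4 77 CGs from -211 to 461 bp, in Spry4 67 CGs from -737 to 369 bp and in Fgfr2 61 CGs from -220 to 239 bp. In these 5 of 10 genes the stretch held the start itself, which was so in 40.1% of 18184 genes with at least 50 CGs.

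In the others it lay after the start or elsewhere. It held 75 CGs of Etv4 from 297 to 1122 bp, 59 CGs of Dusp6 from 332 to 938 bp and 58 CGs of Fgfr1 from 541 to 1084 bp. The stretch of Dusp6 had 4.08 ± 0.71 uTOP-seq reads per CG and 23.2% of the uTOP-seq reads of the gene. Fgf5 and Otx2 had no long stretch of this kind, with 13 and 6 CGs. The median over all genes was 32 CGs, which 8 of the 10 genes exceeded, but long genes have more CGs. As a share of the CGs of the gene, the stretch was 39.7% in Fgf4, 37.1% in Spry2, 23.3% in Etv4, 21.9% in Dusp6, 19.3% in Spry4 and 9.45% in Etv5, above the median of 8.94% over all genes. It was 5.27% in Fgfr1, 4.198% in Fgfr2, 3.47% in Fgf5 and 1.83% in Otx2, below that median.

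The starts of these genes were rich in CGs, with Otx2 as the exception. In the 1001 bp centered on the start, Fgfr2 had 101 CGs, Etv5 96, Fgf4 88, Spry2 85, Fgf5 79, Fgfr1 78, Spry4 73, Etv4 64 and Dusp6 61, against a median of 45 over all genes. Otx2 had 28, with an observed over expected CG ratio of 0.62. The other 9 genes had ratios from 0.73 in Etv4 to 0.93 in Fgfr2, against a median of 0.58. Fgf5 has a start as CG-rich as that of Fgfr1. The longest stretch described above held fewer CGs in Fgf5, with 13 over 1932 bp against 58 over 545 bp in Fgfr1. It lay outside the window at the start in both genes, from 4172 to 6102 bp in Fgf5 and from 541 to 1084 bp in Fgfr1. These stretches therefore do not compare the starts.

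The share of reads that fell in each gene was then compared between hmTOP-seq at 500 ng and uTOP-seq by the quasi-likelihood test of edgeR, which sets the 2 replicates of the one against the 3 of the other. Since the CGs of a gene are the same in both assays, their number cancels, but the chemistries differ, so that the test is of relative share only. Of 19437 genes tested, 40.3% were higher in hmTOP-seq and 41.8% lower, so that 82.1% had a Benjamini-Hochberg adjusted p under the threshold of 0.05. Of the 10 genes, 2 were higher and 6 lower. The median log2 difference was -0.27 over the 10 genes and -0.03 over all genes.

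Both receptors were higher in hmTOP-seq. Fgfr1 was higher by a log2 difference of 0.80 ± 0.035 (SE, edgeR adjusted p = 9.26e-25) and Fgfr2 by 0.33 ± 0.019 (adjusted p = 1.73e-20). Over the principal transcript, the difference of Fgfr2 was 0.96 ± 0.039 and that of Fgfr1 0.87 ± 0.036, without the 30 other genes of the span.

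The feedback genes were lower in hmTOP-seq, in different degree. Spry2 was lower by 23.8-fold, with a log2 difference of -4.57 ± 0.14 (edgeR adjusted p = 5.54e-31), and Dusp6 by 11.3-fold, with -3.50 ± 0.11 (adjusted p = 2.96e-30). Spry4 had a log2 difference of -0.60 ± 0.056 (adjusted p = 2.16e-13). Among the other genes, Fgf4 had -1.06 ± 0.070 (adjusted p = 2.73e-18), which became -2.47 ± 0.11 over the principal transcript, Etv4 -0.32 ± 0.063 (adjusted p = 1.57e-05) and Fgf5 -0.22 ± 0.084 (adjusted p = 0.0139). The call of Fgf5 was lost without 500-ng replicate 1, at -0.13, and under DESeq2, at -0.20.

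Otx2 with 0.06 ± 0.071 (edgeR adjusted p = 0.417) and Etv5 with -0.03 ± 0.039 (adjusted p = 0.524) did not pass the threshold. Over the principal transcript Otx2 was lower, with -0.33 ± 0.088 (adjusted p = 0.0010). Scaling by library totals in place of TMM shifted the median of all genes to -0.33, with 5271 genes higher and 10751 lower instead of 7831 and 8120. Under it Fgfr1 was still higher, the difference of Fgfr2 shrank to 0.04 ± 0.019 (adjusted p = 0.0497), and the other 8 genes were lower, Otx2 and Etv5 included.

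Split into promoter, exons and introns of the annotated span, 36.6% of 52530 such elements of all genes were higher in hmTOP-seq and 39.1% lower. Of the 30 elements of the 10 genes, 7 were higher and 13 lower. Under library totals, 12892 of all elements were higher and 26467 lower instead of 19251 and 20539, and 6 of the 30 were higher and 20 lower. Promoters were lower in 6 genes and higher in 1, against 54.8% and 20.2% of all promoters, with a median log2 difference of -1.75 against -0.83. Exons were higher in 4 genes and lower in 3 (44.6% and 31.3% of all), and introns higher in 2 and lower in 4 (44.5% and 31.8%).

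At promoters, the largest differences were those of Spry2 with a log2 difference of -6.94 ± 0.34 (edgeR adjusted p = 1.93e-22), from 3 and 1 reads at 500 ng against 313, 248 and 187 in uTOP-seq, and of Dusp6 with -6.48 ± 0.25 (adjusted p = 6.21e-26), from 7 and 3 reads against 555, 368 and 385. Spry4 with -2.98 ± 0.20, Etv5 with -1.86 ± 0.14 and Etv4 with -1.63 ± 0.17 were lower as well. At the principal start, Fgfr2 had -2.23 ± 0.26, Fgfr1 -1.48 ± 0.29 and Fgf4 -0.94 ± 0.17, and all 3 passed the threshold. At their annotated starts, the differences were -3.90 ± 0.18 in Fgfr2, -0.05 ± 0.33 in Fgfr1 and 0.01 ± 0.22 in Fgf4, and of these only that of Fgfr2 passed it. Fgf5 with -0.27 ± 0.16 and Otx2 with 0.24 ± 0.18 did not pass it at the principal start. At its annotated start, 6.30 kb farther upstream, the promoter of Otx2 was higher, with 0.72 ± 0.15 (adjusted p = 4.82e-05).

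Exons and introns differed more between the genes than promoters did in sign. In the exons of the principal transcript, Fgfr2 with a log2 difference of 1.42 ± 0.10, Fgfr1 with 1.32 ± 0.073, Etv5 with 0.96 ± 0.12 and Spry4 with 0.48 ± 0.081 were higher in hmTOP-seq. Fgf4 with -3.59 ± 0.19, Spry2 with -2.92 ± 0.20 and Dusp6 with -2.60 ± 0.14 were lower, and Fgf5, Otx2 and Etv4 did not pass the threshold. Under library totals the exons of Spry4 no longer passed it, with 0.12 over the annotated span. In the introns, Spry2 with -6.42 ± 0.25, Fgf4 with -5.20 ± 0.33, Dusp6 with -3.29 ± 0.30, Spry4 with -1.36 ± 0.091 and Otx2 with -0.66 ± 0.12 were lower, whereas Fgfr2 with 1.06 ± 0.045, Fgfr1 with 0.89 ± 0.042 and Etv5 with 0.11 ± 0.043 were higher. Over the annotated span, the introns of Fgf4 had -0.63 ± 0.083 and those of Fgfr2 0.40 ± 0.016, and those of Otx2 with -0.05 ± 0.092 (adjusted p = 0.603) and Etv5 with 0.07 ± 0.042 (adjusted p = 0.108) did not pass the threshold. Under library totals the introns of Etv5 were lower over this span, with -0.28 ± 0.042 (adjusted p = 6.52e-08). In Spry4 the exons and introns therefore differed in direction.

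**Figure D5:**
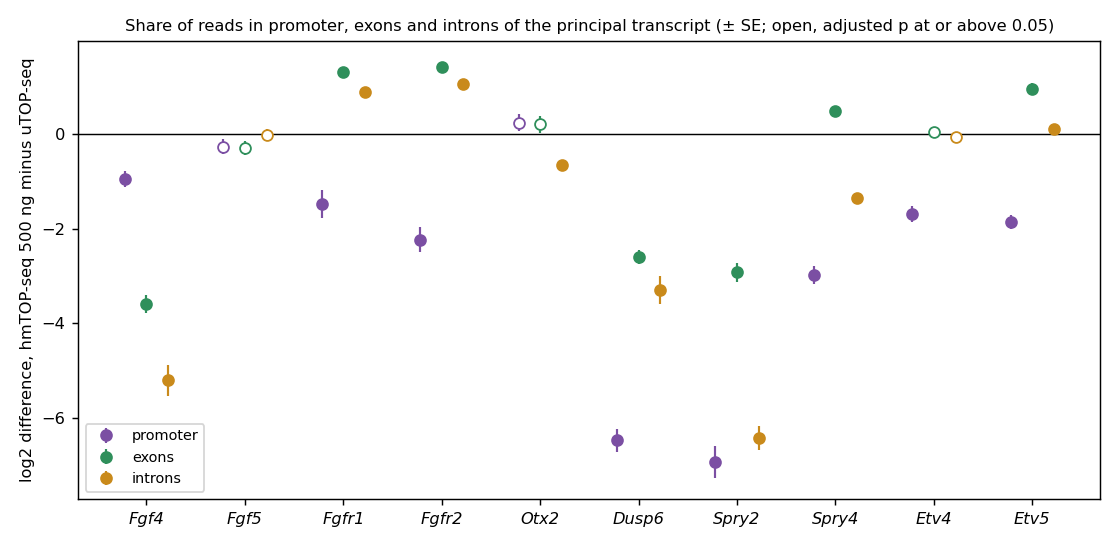
Log2 difference of the share of reads, hmTOP-seq at 500 ng minus uTOP-seq, in the promoter (purple), exons (green) and introns (orange) of the principal transcript of each gene, with standard errors from edgeR. Filled points have an adjusted p under 0.05 and open points do not. Promoters lie at or below 0.24, and exons range from -3.59 in Fgf4 to 1.42 in Fgfr2.

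Between inputs of 50 and 500 ng, none of the 10 genes passed the threshold, against 1 of all 18729 genes tested, or 0.00534%, and 2171 genes at an unadjusted p under 0.05. DESeq2 called 140 of 4568 genes that it tested, which held only 3 of the 10. The log2 differences of the 10 genes, 50 minus 500 ng, ran from -0.74 ± 0.52 in Spry2 (edgeR adjusted p = 0.596) to 0.07 ± 0.052 in Etv5 (adjusted p = 0.593). Dusp6 had -0.26 ± 0.31, and the other 8 genes lay within -0.14 and 0.07. Without 50-ng replicate 1, Etv5 was called higher, with 0.13. In simulated counts of this design, 87% of genes changed 2-fold were called. That share is over 200 genes drawn from all those tested, and it was not measured for genes with as few reads as Spry2 and Dusp6.

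Between 5 and 500 ng, again none of the 10 genes passed the threshold, against 0.0% of 18555 genes tested. At an unadjusted p under 0.05 there were 2097 genes, and DESeq2 called 989. Fgf4 had a log2 difference, 5 minus 500 ng, of -0.74 ± 0.18 (edgeR adjusted p = 0.412), and it was the one gene of the 10 that DESeq2 called, with -0.73. Over its principal transcript the difference was -1.95 ± 0.61 (adjusted p = 0.426). Its level relative to the library mean was 1.23 ± 0.036 with 500 ng, 1.16 ± 0.023 with 50 ng and 0.715 ± 0.022 with 5 ng, and the replicates of the inputs did not overlap.

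Spry2 had -2.82 ± 1.003 at 5 ng (adjusted p = 0.429), from 5 reads in both libraries, and Dusp6 0.93 ± 0.54 (adjusted p = 0.559), where a single CG held 57 of 122 reads of 1 library. The other 7 genes lay between -0.10 in Etv5 and 0.39 in Fgf5. In simulated counts of this design 38% of genes changed 2-fold were called, so that changes of this size could be missed. Leaving out 5-ng replicate 1 or 5-ng replicate 2, 5 of the 10 genes were called, beside 10791 or 10538 of all genes. The percentile of Fgfr1 among all genes moved by less than 1 between inputs, from 95.9 to 96.6.

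In the control libraries without BGT, 0 reads were counted in all 6 libraries for Fgf4, Fgf5, Otx2, Spry2, Spry4 and Etv5. Fgfr1 had 2 reads in each 500-ng control, and Etv4 2 in 1 of them. Over the whole Fgfr2 span 48 reads were found in the 6 controls together. Dusp6 had 18 reads in 1 control library at 5 ng and none in the other 5, against 54 and 122 reads in the labeled 5-ng libraries. These controls were far shallower than the labeled libraries.

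Other genes of the pathway gave the setting. In all genes, as given above, 40.3% were higher and 41.8% lower in hmTOP-seq than in uTOP-seq, and nothing is read from the small lists beyond their counts. Of 18 further FGF ligand genes, 7 were higher and 9 lower in hmTOP-seq than in uTOP-seq, and their coverage at 500 ng ran from 0.582 reads per CG in Fgf12 and 0.611 in Fgf14, intracellular members of the family, to 4.30 in Fgf22 and 8.53 in the endocrine ligand gene Fgf21. Of 5 further receptors and co-receptors, 4 were higher and none lower (40.3% and 41.8% of all genes), from 1.63 reads per CG in Fgfrl1, a receptor without a kinase, and 2.24 in the co-receptor gene Kl to 3.48 in Fgfr3 and 6.65 in Fgfr4. Of 18 autosomal genes for adaptors and the RAS-ERK cascade, 9 were higher and 8 lower. The kinase gene Braf had 1.07 reads per CG at 500 ng, the kinase gene Mapk3 3.62 and the scaffold gene Ksr1 4.37. No gene of these lists passed the threshold between inputs.

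Of 15 further ERK feedback and target genes, 10 were lower and 4 higher in hmTOP-seq than in uTOP-seq, beside 41.8% and 40.3% of all genes. The immediate-early gene Ier2 had 0.0521 ± 0.044 reads per CG at 500 ng against 5.06 ± 1.45 in uTOP-seq, a log2 difference of -6.72, and Myc 0.332 ± 0.12 against 3.43 ± 0.67, with -3.50. Spred2, a relative of the Sprouty genes, had 3.97 ± 0.041 and Fosl1, a subunit of AP-1, 4.40 ± 0.43 reads per CG at 500 ng. The median percentile of this list was 52.0 in hmTOP-seq and 86.4 in uTOP-seq, beside 61.5 and 90.7 of the 10 genes.

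Of 9 further primed-state genes, 5 were higher and 3 lower, from 0.625 in Zic2 and 0.652 in Pou3f1, both transcription factor genes, to 3.15 in Lef1 and 3.70 in the DNA methyltransferase gene Dnmt3a. Of 11 naive-state genes, 1 was higher and 7 lower (40.3% and 41.8% of all genes), from 0.333 in Klf2 and 0.669 in Klf4 to 3.45 in Tcl1 and 4.02 in Esrrb. The log2 difference of Klf2 was -3.27, close to the -3.50 of Dusp6.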

How the data were processed

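Reads of hmTOP-seq (6 labeled and 6 control libraries) and uTOP-seq (3 libraries) were used as the authors deposited them: whole-number read counts per CG and library, without normalization or pooling. Per the paper's methods, raw reads shorter than 80 nt were dropped, the rest was aligned to mm10 and kept from a mapping quality of 30 upward, duplicates of equal start and length were collapsed without molecular identifiers, and reads were assigned to CGs. The aligner is not given in the sources used here. Because duplicates cannot be told from separate molecules of the same start, intervals and upper limits cover counting error only.

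Deposited positions count from 0 and were raised by 1, after which all of 5730 CGs checked lay on a CG of the reference. Strands of uTOP-seq were summed. Genes came from GENCODE M21, with the promoter as the 2 kb upstream. Principal transcripts were those of the APPRIS tag. Counts were compared by the quasi-likelihood test of edgeR 4.0.16 in R 4.3.3 with TMM normalization, over features with a mean of at least 10 reads, adjusted over all features. DESeq2 1.42.0 was an alternative. Only the libraries compared entered a fit, and replicate numbers were not used as a block. Parts were compared with at least 10 CGs each. In simulated counts, 87%, 38%, 93.5% and 77% of features changed 2-fold were called (50 and 5 ng against 500 ng, assays by gene, assays by element). Only 200 features were changed there, whereas 82.1% of genes and 75.7% of elements were called between the real assays. The shares for the assays therefore do not describe a comparison in which most features differ. Python 3.11.15 with pandas 2.3.3 and matplotlib 3.10.9 was used otherwise.

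The 10 genes and the lists were chosen with earlier results of these data known, and no p was calculated over a list. Named were all 10 genes, the 2 highest and 2 lowest genes of each list at 500 ng, the CG with the most hmTOP-seq reads in each gene, and the gene nearest to each in 6 values. The value of 1 gene that this rule names is not reported here. Alternatives were other scalings, filters, spans and read minimums, a cap at 20 reads per CG, and leaving out each replicate. No column of a library was left out. RNA was not measured, so that the expression state of the cells was not checked.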

Additional observations from a re-analysis of the deposited data

How the results depend on the processing

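Of 803 values of the 10 genes under an alternative, over all comparisons, 57 changed sign with no call in either setting, 12 of them between 50 and 500 ng and 20 between 5 and 500 ng, and the reversals with a call were as follows. Otx2 over the gene became -0.23 under library totals, -0.20 over the gene span alone and -0.33 over the principal transcript, the Fgf4 promoter -0.94 over the principal transcript, the Etv5 introns -0.28 under library totals, and Etv4 between 5 and 500 ng -0.29 without replicate 2 and 0.33 without replicate 1 at 5 ng. The call of Fgf5 was lost under DESeq2 (-0.20) and without 500-ng replicate 1 (-0.13). Between 50 and 500 ng, the 1 gene called became 140 with DESeq2, 109 with a replicate block, 2 with at least 2 reads per CG, 0 without the filter and 0 with the 3 inputs in 1 fit. Leaving out 1 replicate gave 1 to 2397 genes and 0 to 1 of the 10 (Etv5, 0.13), with 2366 and 2397 without a 50-ng replicate. Between 5 and 500 ng, 989 genes and 1 of the 10 were called with DESeq2 and 2 genes with a replicate block. Leaving out 1 replicate gave 0 to 10791 genes and 0 to 5 of the 10, with 10791 and 10538 without a 5-ng replicate. The lone library of an arm is assumed there to vary like the other group. Same-numbered replicates did not deviate together (r of 0.0386, -0.0113, -0.0127 and -0.00319), and under the block 15699 genes and 38450 elements differed between assays, with 8 genes and 20 elements among the 10 genes, as many as without it. The median percentile at 500 ng was 58.6 over the gene span alone, 68.5 over covered CGs, 62.0 with at least 2 reads, 64.8 over principal transcripts and 61.7 to 62.2 leaving out 1 replicate. With parts of at least 5 CGs, the 2 kb downstream exceeded the 2 kb upstream in uTOP-seq in 2 genes instead of 1. The causes were not tested.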

Other observations

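The gene most like each of the 10 was sought over 6 values, the log2 reads per CG plus 0.1 in promoter, exons and introns of the annotated span in both assays, among 19384 genes. The closest match was Fmo5 for Fgf5, at a Euclidean distance of 0.198, followed by Hsf5 for Otx2 at 0.264, Prpf8 for Fgfr2 at 0.319 and Ttc24 for Fgfr1 at 0.332. Thoc6 was nearest to Etv4 at 0.540, Actn1 to Etv5 at 0.573, Tmem129 to Dusp6 at 0.704, Sphk2 to Spry4 at 0.737 and 2210011C24Rik to Fgf4 at 0.811. Spry2 had the most distant nearest gene, Mex3b at 0.984, with 0.0443, 0.533 and 0.0978 hmTOP-seq reads per CG in promoter, exons and introns and 2.44, 3.09 and 4.05 in uTOP-seq. Nothing about shared function follows from these distances.

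The strands of uTOP-seq were read evenly in the 10 genes, with a mean share of reads on the sense strand from 47.4% ± 0.87 in Fgfr1 to 55.8% ± 3.42 in Spry4 (SD, n = 3). Some CGs were covered in both assays. In Spry4, 103 of 347 CGs had a read in both 500-ng replicates and in all 3 uTOP-seq replicates, and in Fgfr1 281 of 1189. Spry2 had 3 such CGs of 315 and Dusp6 10 of 270, where only 6 and 13 CGs had a read in both 500-ng replicates. Such counts depend on how many CGs each assay covered, and no share over all genes stands beside them.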
